A study of Mus musculus with 2 samples.

Results

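Cajal-Retzius neurons were examined in single-cell RNA libraries from the cerebral cortex of 2 mouse embryos at embryonic day 16.5, with 1 library per embryo. A cell barcode was kept when it held at least 1000 detected genes and no more than 10% of its unique molecular identifiers (UMIs, each standing for 1 captured RNA molecule) came from mitochondrial genes. A kept barcode counted as a Cajal-Retzius neuron when it carried at least 5 UMIs of *Reln*, at least 2 UMIs of *Trp73*, *Lhx1* and *Lhx5* together, and at most 1 UMI of *Gad1* and *Gad2* together. This gate took 208 of 22347 kept barcodes, which are called members here. Embryo 4 held 111 members among 10879 kept barcodes, or 1.02% (exact 95% binomial interval 0.840 to 1.23%), and embryo 5 held 97 among 11468, or 0.846% (0.686 to 1.03%), the intervals covering counting error only.

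Both embryos carry the genotype label WT and are control embryos of an EomesMllt3 mouse line. The labels give the source as brain hemispheres, the age as 16.5 days and no treatment. The single-cell methods in the study describe dorsal telencephalon of C57BL/6J mice at an earlier embryonic day. A supplementary legend of the study gives C57BL/6J also for its single-cell cortices at embryonic day 16.5. The sex and any further alleles of these embryos were not given in the sources used here. Every comparison was therefore made between classes of barcodes within the same 2 embryos, with the UMIs of each class summed per embryo, so that n = 2 throughout. The 2 libraries held 12825 and 12289 barcodes with 124318613 and 117679925 UMIs, and 46 barcode sequences occurred in both, none of them a member.

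Cajal-Retzius cells are among the earliest neurons of the cortex. They settle in the marginal zone under the pia and secrete reelin, the extracellular glycoprotein encoded by *Reln*, which binds the receptors Vldlr and Lrp8 on migrating neurons and acts through the adaptor Dab1 to set the order of the cortical layers. They arise at the borders of the pallium, at the cortical hem, the septum and the boundary with the subpallium, spread tangentially over the cortical surface, and most of them die after birth. *Trp73* encodes the p53 relative p73 and is used in those from the hem and septum, and *Lhx1* and *Lhx5* encode LIM homeodomain transcription factors.

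The gate genes chose the members, so their values are given as a description. *Reln* (chromosome 5, 21884454 to 22344705 in GRCm38, the mm10 build) ranged from 5 to 521 UMIs per member in embryo 4, with a median of 89, and from 6 to 452 in embryo 5, with a median of 123. *Trp73* (chromosome 4, 154056249 to 154139875) had a UMI in 91.9% and 91.8% of members, *Lhx1* (chromosome 11, 84517975 to 84525534) in 83.8% and 86.6%, and *Lhx5* (chromosome 5, 120431886 to 120441457) in 76.6% and 73.2%. All of *Trp73*, *Lhx1* and *Lhx5* were seen in 68 and 57 members, exactly 2 of them in 33 and 33, and only 1 in 10 and 7. A UMI of *Gad1* or *Gad2*, the enzymes of GABA synthesis, occurred in 3 members of embryo 4 and in 0 of embryo 5.

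The shares that follow describe genes that the gate chose on. Members were few but held most of the reelin message of these libraries. They carried 12529 of the 21757 *Reln* UMIs in kept barcodes of embryo 4 (57.6%) and 12851 of 21052 in embryo 5 (61.0%). GABAergic barcodes rich in *Reln* carried 13.0% and 12.8%, *Neurod6* barcodes 11.5% and 14.4%, and the other GABAergic barcodes 6.70% and 4.58%. Summed levels of *Reln*, as counts per 1000000 UMIs of the class (CPM), were 7239 and 9317 in members, 868 and 1339 in *Reln*-rich GABAergic barcodes, 65.8 and 56.2 in *Eomes* barcodes, 41 and 50.1 in *Neurod6* barcodes and 10.3 and 14.6 in *Slc1a3* barcodes. A UMI of *Reln* was found in 8.61% and 6.47% of *Slc1a3* barcodes, the radial glia that should lack it, at median depths of 13604 and 12077 UMIs against 14235 and 13072 in members. Members also carried 85.5% and 91.5% of all *Trp73* UMIs, 88.2% and 92.4% of all *Lhx1* UMIs and 74.2% and 77.9% of all *Lhx5* UMIs.

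**Figure D1:**
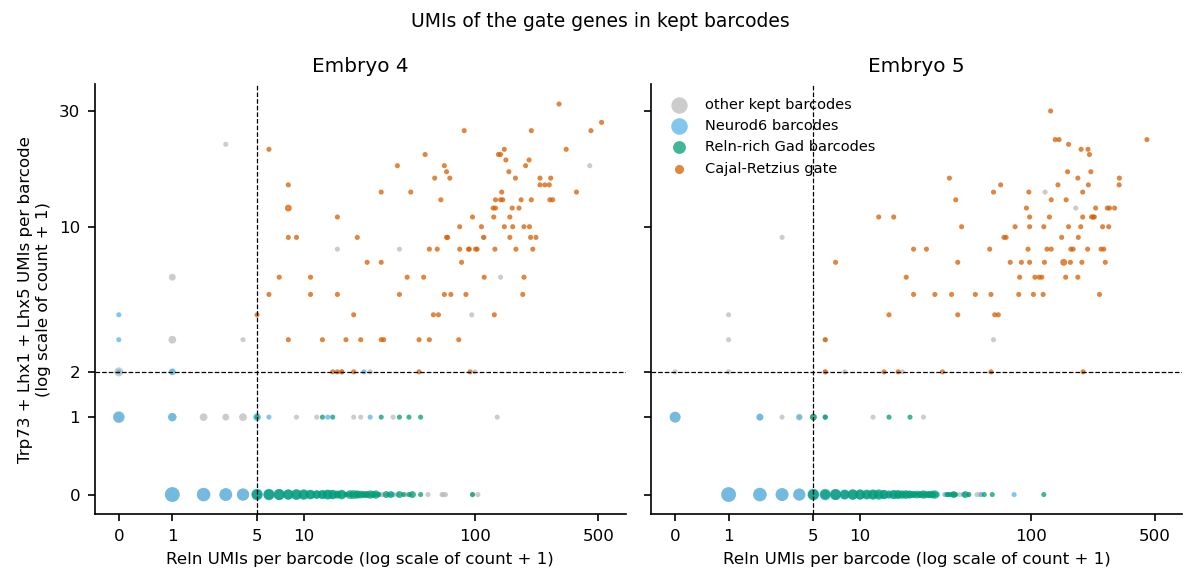
UMIs of *Reln* (horizontal axis) against the summed UMIs of *Trp73*, *Lhx1* and *Lhx5* (vertical axis) for kept barcodes of embryo 4 and embryo 5, both axes on a log scale of the count plus 1, with larger points for more barcodes and dashed lines at the limits of 5 and 2. The members fill the upper right of each panel, with medians of 89 and 123 *Reln* UMIs and few barcodes near where the lines cross. Many barcodes without *Trp73*, *Lhx1* or *Lhx5* lie on both sides of the *Reln* line.

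Few barcodes that met the other limits lay just inside or just outside a given limit. Just inside the *Reln* limit, 10 and 3 members had 5 to 9 UMIs, and just outside it 7 and 3 barcodes had 1 to 4 *Reln* UMIs with at least 2 of the other genes. Just inside the second limit, 6 and 6 members had exactly 2 UMIs of *Trp73*, *Lhx1* and *Lhx5*, with median *Reln* counts of 18.5 and 24. Just outside it, 12 and 6 barcodes had 1 such UMI, with median *Reln* counts of 13 and 6. A further 234 and 244 barcodes had at least 5 *Reln* UMIs, at most 1 *Gad* UMI and none of *Trp73*, *Lhx1* or *Lhx5*, with median *Reln* counts of 7 and 8.

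The label was checked on 10 genes of these neurons that the gate did not read, namely *Calb2*, *Ebf1*, *Ebf2*, *Ebf3*, *Nhlh2*, *Ndnf*, *Cacna2d2*, *Slc17a6*, *Cxcr4* and *Tbr1*. The median member carried UMIs of 7 of the 10 genes in each embryo, and 82.9% and 91.8% of members carried at least 5. In *Slc1a3* barcodes the median was 0 genes and in *Neurod6* barcodes 1, and at least 5 were seen in 0.418% and 0.232% of *Neurod6* barcodes. In *Eomes* barcodes the medians were 2 and 1, and 1.41% and 0.969% carried at least 5. Among *Reln*-rich GABAergic barcodes 6.09% and 1.06% carried at least 5. Barcodes of at least 3000 UMIs were also thinned to 3000, which left out 21 and 35 *Neurod6* barcodes and 0 members. The median member then carried 4 and 5 of these genes and the median *Neurod6* barcode 0. At least 5 were then seen in 40.5% and 51.5% of members and in 0% of *Neurod6* barcodes. *Ebf3* had a UMI in 86.5% and 94.8% of members against 0.552% and 0.329% of *Slc1a3* barcodes, and *Ndnf* in 55% and 69.1% against 4.64% and 7.57%. Members held 49.6% and 49.4% of all *Ebf3* UMIs, and *Eomes* barcodes 28.3% and 29.3%. On genes outside its own rule, the data did not go against the label.

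**Figure D2:**
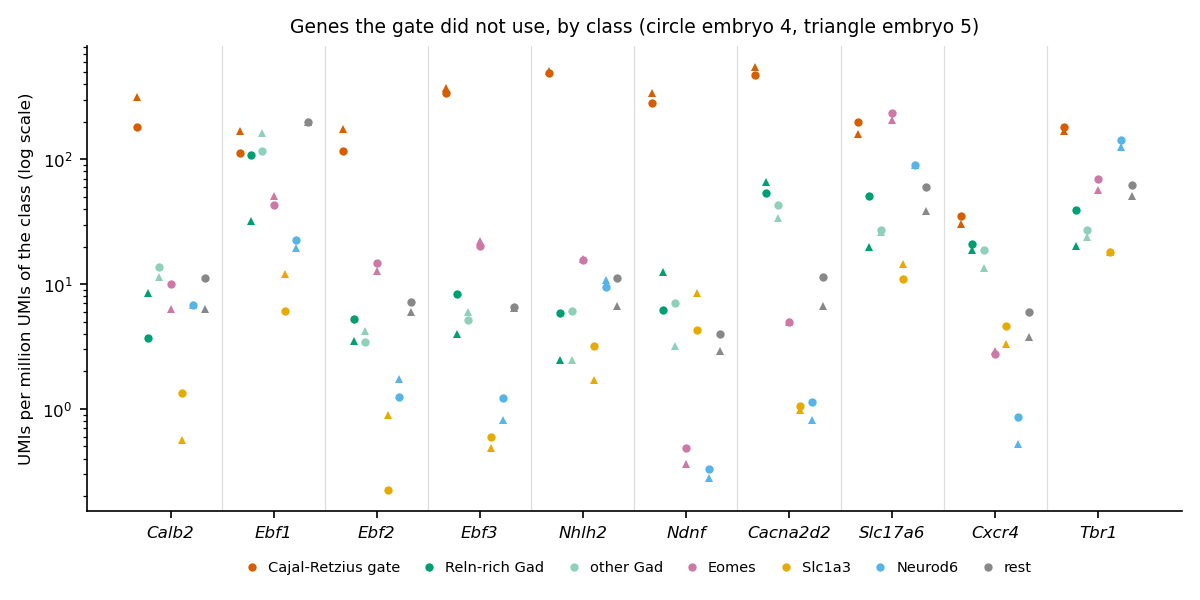
Levels of the 10 genes that the gate did not use, in CPM (log scale), for 7 classes of kept barcodes, with a circle for embryo 4 and a triangle for embryo 5. Members stand highest for genes such as *Ebf3* (337 and 376 CPM) and *Ndnf* (285 and 343), while *Tbr1* and *Slc17a6* are also high in other classes.

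Markers of other cell types were also counted in the members, where 45 of 208 met the limits of another class. Summed markers of radial glia stood at 459 and 434 CPM in members against 2114 and 2110 in all other kept barcodes, and those of cycling cells at 138 and 218 against 617 and 694. In *Neurod6* barcodes the radial glia markers summed to 894 and 898 CPM and the cycling markers to 119.5 and 126.4. *Olig1*, *Olig2*, *Pdgfrb*, *Lum*, *Ly6c1*, *Kcne2*, *Prlr* and *Neurog1* were at 0 UMIs in members. The 6 markers of intermediate progenitors summed to 165 and 199 CPM in members against 93.5 and 83.5 in *Neurod6* barcodes and 341 and 299.8 in all other kept barcodes. The 6 pericyte markers summed to 28.9 and 35.5 CPM against 13.3 and 7.86 in *Neurod6* barcodes, 2.46 and 22.8 in *Reln*-rich GABAergic barcodes and 56.7 and 50.3 in all others. Of these only *Rgs5* passed the filter on low counts in the fit over neuron classes, and it was higher in members than in *Neurod6* barcodes (2.30 ± 0.54, edgeR adjusted p = 0.013) and *Reln*-rich GABAergic barcodes (3.37 ± 0.85, edgeR adjusted p = 0.0197). Summed erythroid markers stood at 4892 and 278 CPM against 934 and 1727 in all other kept barcodes, and microglia markers at 11.6 and 66.7 against 34.1 and 35.6. Haemoglobin transcripts summed to 8457 UMIs in the members of embryo 4, of which 8183 sat in 1 barcode, and to 373 in embryo 5. C1q transcripts of microglia summed to 3 and 49 UMIs, 47 of them in 1 member of embryo 5. *Neurod6* at 3 or more UMIs was present in 15 and 10 members, *Eomes* at 3 or more without it in 12 and 5, and *Slc1a3* with *Sox2* alone in 2 and 1, which leaves 163 members with none of these. The members with *Neurod6* had median depths of 27183 and 27740 UMIs, and 10 and 7 of them exceeded 2.5 times the median of kept barcodes. Results were therefore also computed on the 163 members alone. Among the genes named here, this added 3 and removed 2 calls against *Neurod6* barcodes and added 11 and removed 2 against *Reln*-rich GABAergic barcodes. The part of the other markers in the results was otherwise not tested.

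Against all other kept barcodes, edgeR's quasi-likelihood test on the summed counts, with Benjamini-Hochberg adjustment and a threshold of 0.05, placed 2277 genes higher and 2864 lower in members, 12.1% and 15.2% of 18795 genes tested (27.4% in all). *Ndnf*, a secreted neuron-derived neurotrophic factor, stood at 285 and 343 CPM in members (log2 fold change 7.16 ± 0.12, edgeR adjusted p = 8.91e-07). *Ebf3*, an early B-cell factor that takes part in neuronal differentiation, differed by 6.10 ± 0.10 on the log2 scale, and the calcium channel subunit gene *Cacna2d2* by 5.98 ± 0.16. Genes of radial glia and of cycling cells were lower, among them *Fabp7* (-3.52 ± 0.21, edgeR adjusted p = 6.55e-05), *Aldoc* (-3.18 ± 0.18) and *Top2a* (-3.31 ± 0.27), and all 9 cycling markers tested were lower. Against *Neurod6* barcodes 1 of these 9 was higher, 0 were lower and 8 were not called, beside 33.1% called over all genes. Standard errors are given after each log2 fold change, which is positive where members were higher.

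The members were next set against 2 classes of neurons. *Neurod6* barcodes (5028 and 5614), with at least 3 UMIs of the transcription factor of young pallial excitatory neurons, share the glutamatergic fate. *Reln*-rich GABAergic barcodes (197 and 188), with at least 5 *Reln* UMIs, at least 2 *Gad* UMIs and at most 1 UMI of *Trp73*, *Lhx1* and *Lhx5*, share the reelin message but carry the enzymes of GABA synthesis. Both comparisons came from 1 fit over the 3 classes and use the same member sums, and the genes that defined a class were left out of the calls. Against *Neurod6* barcodes 2282 genes were higher and 1814 lower in members, 18.5% and 14.7% of 12361 tested (33.1% in all). Against *Reln*-rich GABAergic barcodes 1941 were higher and 1865 lower, 15.7% and 15.1% of the same 12361 (30.8% in all).

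Of the 17 listed genes that mark Cajal-Retzius neurons outside the gate, 16 were higher in members than in *Neurod6* barcodes and 1 did not pass. Over all genes tested 18.5% were higher and 33.1% were called. The median log2 fold change of the list was 5.50 beside 0.01 over all genes tested. Genes that travel with the gate genes in the same cells were selected along with them, so these values describe how far the members stand apart. *Ndnf* (chromosome 6, 65671611 to 65712323) was at 285 and 343 CPM in members and at 0.327 and 0.28 in *Neurod6* barcodes (log2 fold change 9.85 ± 0.23, edgeR adjusted p = 1.56e-07). *Cacna2d2* (chromosome 9, 107399733 to 107529346) stood at 476 and 553 against 1.13 and 0.808 CPM (8.91 ± 0.20, edgeR adjusted p = 1.53e-07). *Car10* (chromosome 11, 93096805 to 93601751), which encodes a secreted carbonic anhydrase relative that binds neurexins, stood at 407 and 428 against 1.06 and 0.824 CPM (8.65 ± 0.15, edgeR adjusted p = 6.61e-08). For these genes both embryos of one class lay far outside the range of the other.

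The early B-cell factors are helix-loop-helix transcription factors of differentiating neurons. *Ebf3* (chromosome 7, 137193671 to 137322805) was at 337 and 376 CPM against 1.22 and 0.808 in *Neurod6* barcodes (8.31 ± 0.21, edgeR adjusted p = 1.56e-07) and *Ebf2* at 117 and 174 against 1.24 and 1.75 (6.45 ± 0.24, edgeR adjusted p = 1.03e-06). *Ebf1* was less distinct, with 113 and 168 against 22.7 and 19.4 CPM (2.59 ± 0.40, edgeR adjusted p = 0.00166). The 2 neuronal helix-loop-helix genes also differed in degree. *Nhlh2* (chromosome 3, 102010111 to 102015492) stood at 491 and 508 against 9.41 and 10.7 CPM (5.50 ± 0.15, edgeR adjusted p = 2.31e-07), and *Nhlh1* at 45.6 and 42.8 against 9.0 and 18.3 (1.57 ± 0.39, edgeR adjusted p = 0.0154).

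*Calb2* (chromosome 8, 110142526 to 110168212), which encodes the calcium buffer calretinin that is commonly used to stain these cells, was at 181 and 316 CPM in members and 6.78 and 6.86 in *Neurod6* barcodes (5.04 ± 0.26, edgeR adjusted p = 6.43e-06). The homeobox gene *Emx2*, active in the medial pallium and hem, was at 307 and 341 against 13.4 and 12 (4.54 ± 0.17, edgeR adjusted p = 1.21e-06). *Nr2f2*, the nuclear receptor COUP-TFII, was at 560.4 and 533 against 60.3 and 56.2 (3.10 ± 0.10, edgeR adjusted p = 7.47e-07). *Tmem163*, a zinc transporter gene, was at 529 and 644 against 10.2 and 9.84 (5.74 ± 0.28, edgeR adjusted p = 4.56e-06). The low genes *Barhl2* and *Mab21l1*, which encode a homeodomain protein and a Mab21 family protein, reached 24.3 and 31.2 and 27.2 and 27.6 CPM and were below 1 CPM in *Neurod6* barcodes, with log2 fold changes of 5.61 ± 0.36 and 5.77 ± 0.43. In each of these genes the 2 embryos of the members lay above both embryos of the comparator.

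*Cxcr4*, the receptor for the chemokine Cxcl12 that holds Cajal-Retzius cells under the meninges, stood at 35.2 and 30.5 CPM in members and 0.865 and 0.528 in *Neurod6* barcodes (5.42 ± 0.28, edgeR adjusted p = 6.48e-06). In *Reln*-rich GABAergic barcodes it stood at 20.9 and 18.9 CPM, and this difference did not pass the threshold (0.65 ± 0.26, edgeR adjusted p = 0.0939). *Tbr1*, a T-box factor of early-born glutamatergic neurons and the 1 listed gene that did not pass against *Neurod6* barcodes, stood at 183 and 168 against 143 and 126 CPM (0.25 ± 0.18, edgeR adjusted p = 0.312). Against *Reln*-rich GABAergic barcodes, at 39.1 and 20.4 CPM, *Tbr1* was higher in members (2.43 ± 0.22, edgeR adjusted p = 1.75e-04), by 5.0 when comparators with markers of other classes were left out.

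Outside the lists, *Lhx1os* (chromosome 11, 84525660 to 84535831) led the genes of at least 50 CPM in all 3 comparisons. It is a long noncoding RNA that starts beside *Lhx1* and runs in the opposite direction. *Lhx1os* stood at 171 and 155 CPM in members and at 0.114 and 0.0989 in *Neurod6* barcodes (10.37 ± 0.20, edgeR adjusted p = 6.61e-08), and members held 85.5% and 89.2% of its UMIs. *Lhx1* belongs to the gate. The annotated spans of *Lhx1* and *Lhx1os* do not overlap, and the use of strand in counting was not given in the sources used here. Whether reads from one gene were counted for the other was not tested. *Snhg11*, a noncoding host gene of small nucleolar RNAs that is used in neurons, was at 388 and 404 against 2.79 and 1.6 CPM (7.36 ± 0.24, edgeR adjusted p = 7.47e-07). *Ndst4*, an enzyme of heparan sulphate modification, was at 348 and 338 against 1.5 and 2.87 (7.16 ± 0.40, edgeR adjusted p = 7.89e-06), and *Thsd7b*, a membrane protein gene with thrombospondin repeats, at 1009 and 1041 against 10.8 and 9.22 (6.54 ± 0.24, edgeR adjusted p = 1.07e-06). *Plekha7*, *Ptchd4* and *Ripor2* completed the 12 highest, with log2 fold changes of 6.25 ± 0.25, 6.16 ± 0.45 and 5.90 ± 0.20.

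Genes of the places where Cajal-Retzius cells are born were mostly higher in members than in *Neurod6* barcodes. The list holds 23 birthplace and patterning genes. Against all other kept barcodes 11 were higher, 4 lower and 8 not called, beside 27.4% called over all genes. In the fit over neuron classes 18 passed the filter on low counts. Against *Neurod6* barcodes 12 of these were higher, 3 lower and 3 not called, beside 33.1% called over all genes, with a median of 2.75. *Zic2* and *Zic5*, zinc finger genes of the dorsal midline, had the largest fold changes among those called. *Zic2* stood at 76.3 and 79 against 1.45 and 1.2 CPM (5.73 ± 0.20, edgeR adjusted p = 7.47e-07), *Zic5* at 53.2 and 63.8 against 1.03 and 0.907 (5.77 ± 0.26, edgeR adjusted p = 3.22e-06), and *Zic4* at 55.5 and 63.1 against 2.37 and 3.05 (4.31 ± 0.24, edgeR adjusted p = 7.89e-06). *Zic1*, the most abundant of them in these sums, was at 130.0 and 170.4 against 9.49 and 11.6 (3.69 ± 0.22, edgeR adjusted p = 1.14e-05).

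The cortical hem supplied a mixed picture. *Lmx1a*, a LIM homeodomain factor of the hem, was at 24.8 and 37.7 CPM in members against 0.735 and 0.775 (5.21 ± 0.35, edgeR adjusted p = 2.29e-05) and *Otx2* at 11.6 and 8.7 against 0.408 and 0.346 (4.61 ± 0.42, edgeR adjusted p = 1.06e-04). The R-spondins, secreted amplifiers of Wnt signalling, were higher as well, with *Rspo2* at 78 and 74.7 against 4.15 and 2.03 (4.49 ± 0.48, edgeR adjusted p = 2.39e-04) and *Rspo3* at 631 and 513 against 187 and 169 (1.55 ± 0.12, edgeR adjusted p = 5.29e-05). The Wnt ligand genes *Wnt3a*, *Wnt8b* and *Wnt2b* of the hem were near the limit of detection in members. *Wnt3a* stood at 1.16 and 0 CPM, *Wnt8b* at 2.31 and 2.18 and *Wnt2b* at 3.47 and 0.725, and these genes fell below the filter. *Wnt5a* is given further below. *Dbx1*, a marker of progenitors at the septum and the pallial boundary, was at 0 and 2.18 CPM.

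*Lhx9*, a LIM homeodomain factor of the medial pallium, stood at 81.5 and 68.2 CPM in members against 15.1 and 11.7 (2.36 ± 0.34, edgeR adjusted p = 0.00115), and *Dmrta2* at 59.5 and 68.9 against 6.94 and 6.2 (3.15 ± 0.17, edgeR adjusted p = 7.89e-06). *Emx1* was lower, at 32.4 and 18.9 against 60.7 and 51.3 CPM (-1.23 ± 0.33, edgeR adjusted p = 0.0233, and -2.22 among members without other markers), unlike *Emx2*. *Lhx2* stood at 178 and 228 against 182 and 181 CPM and did not pass (0.02 ± 0.34, edgeR adjusted p = 0.968).

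**Figure D3:**
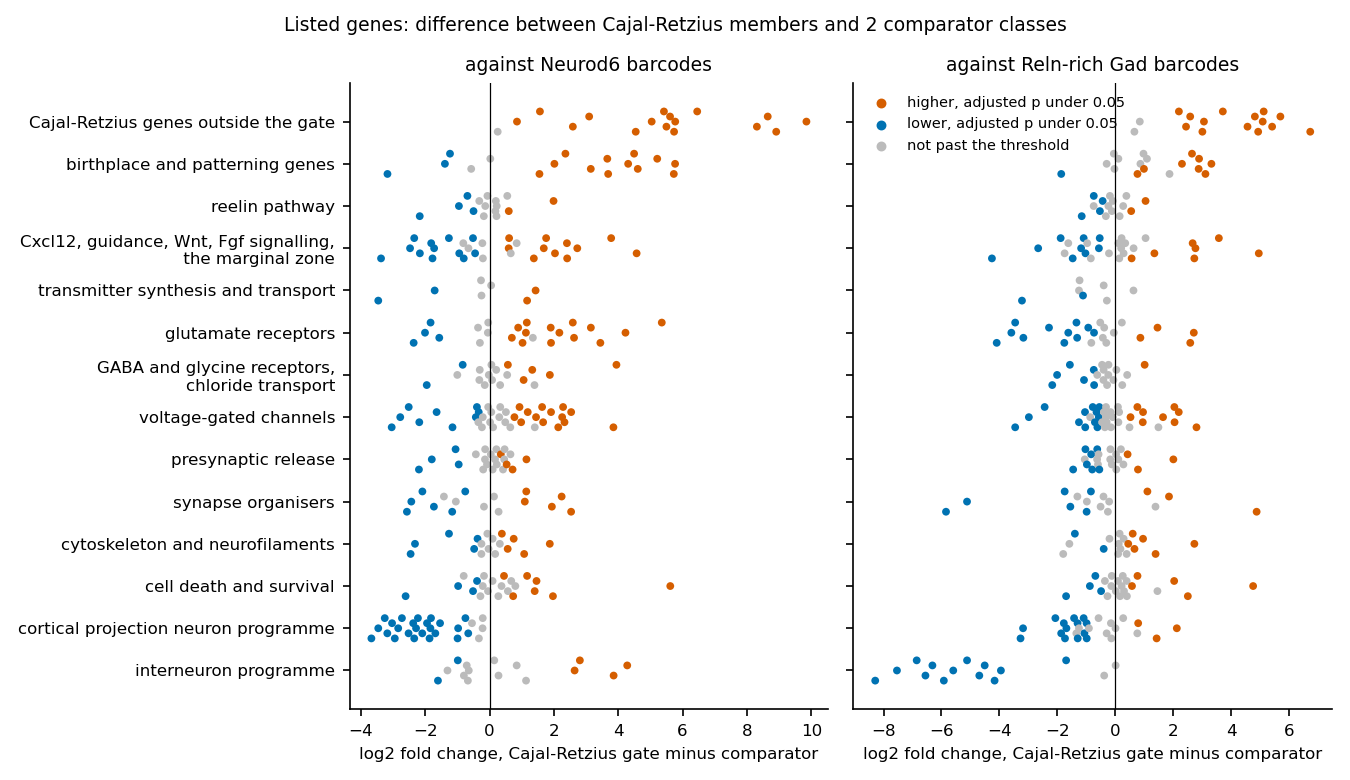
log2 fold changes of listed genes between members and *Neurod6* barcodes (left) and *Reln*-rich GABAergic barcodes (right), 1 row per list and 1 point per gene, coloured by direction where the adjusted p was under 0.05, with genes of 3 or fewer UMIs in either class left out. The Cajal-Retzius genes lie to the right in both panels (medians 5.50 and 4.55), the projection neuron programme lies to the left of 0 on the left (median -2.02) and the interneuron programme far to the left on the right.

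The ligand of the reelin pathway chose the members, and its receiving side was compared apart from it. Of 15 receiving and downstream genes, 2 were higher, 4 lower and 9 not called against *Neurod6* barcodes, beside 33.1% called over all genes, with a median of -0.07. *Dab1*, the adaptor phosphorylated when reelin binds, was at 310.3 and 223 CPM in members against 1051 and 1144 (-2.17 ± 0.22, edgeR adjusted p = 1.55e-04). The receptor genes *Vldlr* and *Lrp8* were at 24.8 and 15.2 against 36.9 and 35.4 CPM (-0.95 ± 0.18, edgeR adjusted p = 0.00523) and at 100 and 102 against 147 and 149 (-0.69 ± 0.11, edgeR adjusted p = 0.00202). All of these were still detected in members, and both embryos of the members lay below both embryos of the comparator. Among members without other markers *Vldlr* differed by -1.44.

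Adhesion genes of the pathway split. *Nectin1*, the nectin through which Cajal-Retzius cells contact migrating neurons, was at 92.4 and 98.6 CPM against 20.2 and 23.5 (1.99 ± 0.12, edgeR adjusted p = 1.50e-05). Its partner *Nectin3* was at 36.4 and 32.6 against 32.1 and 34.1 and did not pass (-0.07 ± 0.18, edgeR adjusted p = 0.815). *Cdh2*, encoding N-cadherin, was lower at 633 and 656 against 809.8 and 850.2 (-0.50 ± 0.10, edgeR adjusted p = 0.00615). Of the Src family kinases that phosphorylate Dab1, *Src* was higher (0.60 ± 0.15, edgeR adjusted p = 0.018) and *Fyn* did not pass (-0.32 ± 0.11, edgeR adjusted p = 0.0514), although it did with the embryo as a replicate block (edgeR adjusted p = 0.0397) and without the members that carried other markers (edgeR adjusted p = 0.0411).

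Guidance and signalling genes of the marginal zone moved in both directions. Against *Neurod6* barcodes 11 of 29 tested were higher and 12 lower, beside 33.1% called over all genes. *Unc5b*, a netrin receptor, was at 82 and 89.9 CPM against 3.27 and 3.3 (4.57 ± 0.13, edgeR adjusted p = 3.46e-07), and *Unc5c* at 370.3 and 329.9 against 39.7 and 56.7 (2.73 ± 0.18, edgeR adjusted p = 1.82e-05). The semaphorin receptor gene *Plxnd1* was at 32.4 and 53.7 against 6.86 and 7.58 (2.41 ± 0.25, edgeR adjusted p = 1.78e-04). The third netrin receptor of the list went the other way, *Unc5d* standing at 333 and 326 against 1514 and 1528 (-2.34 ± 0.32, edgeR adjusted p = 8.72e-04), and the log2 fold change was -4.61 among members without other markers. *Sema3c*, a secreted semaphorin, was at 8.67 and 22.5 against 71.7 and 78.8 CPM (-2.47 ± 0.27, edgeR adjusted p = 2.48e-04, and -4.87 without the members that carried other markers).

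The secreted factors *Bmp7* and *Wnt5a* were higher in members, at 9.24 and 8.7 against 0.49 and 0.693 CPM (3.78 ± 0.50, edgeR adjusted p = 7.74e-04) and at 48.5 and 26.8 against 6.74 and 6.51 (2.41 ± 0.24, edgeR adjusted p = 1.46e-04). *Inhba*, an activin subunit gene, was lower, with 5 UMIs in all members (0 and 3.63 CPM against 15.7 and 14.8, -3.37 ± 0.57, edgeR adjusted p = 0.00262). *Cxcl12*, the chemokine of the meninges, was itself at 35.2 and 60.9 CPM in members against 17.4 and 15.7 (1.38 ± 0.21, edgeR adjusted p = 0.00177), and members held 2.73% and 3.21% of its UMIs. Its scavenging receptor gene *Ackr3* was at 6.36 and 6.53 against 9.55 and 11.1 (-0.82 ± 0.31, edgeR adjusted p = 0.0802, and an edgeR adjusted p of 0.034 with the embryo as a replicate block) but at 106 and 131 CPM in *Reln*-rich GABAergic barcodes (-4.26 ± 0.25, edgeR adjusted p = 2.74e-05).

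Of 8 transmitter genes tested, 2 were higher, 2 lower and 4 not called against *Neurod6* barcodes, beside 33.1% called over all genes. Against *Reln*-rich GABAergic barcodes 0 were higher, 3 lower and 5 not called, beside 30.8% over all genes. *Slc17a6* is among the listed Cajal-Retzius genes and was not counted with these 8. The gate itself capped *Gad1* and *Gad2*. *Slc17a6*, the vesicular glutamate transporter Vglut2, was at 199 and 159 CPM in members, 90.9 and 90.3 in *Neurod6* barcodes (0.85 ± 0.24, edgeR adjusted p = 0.0285) and 51 and 19.9 in *Reln*-rich GABAergic barcodes (2.19 ± 0.30, edgeR adjusted p = 0.00126). The latter difference was 5.51 when comparators with markers of other classes were left out. *Slc17a7*, Vglut1, was at 3.47 and 2.18 against 31 and 27.1 CPM in *Neurod6* barcodes (-3.46 ± 0.31, edgeR adjusted p = 9.14e-05). The vesicular GABA transporter gene *Slc32a1* had 1 UMI in all members and stood at 43.7 and 52.2 CPM in *Reln*-rich GABAergic barcodes. *Chat*, the enzyme of acetylcholine synthesis, had 0 UMIs in members of either embryo. Of the glutamate uptake genes, *Slc1a2* was higher in members than in *Neurod6* barcodes (1.43 ± 0.19, edgeR adjusted p = 6.70e-04) and *Slc1a1* lower (-1.71 ± 0.19, edgeR adjusted p = 2.67e-04).

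Of 23 glutamate receptor genes tested, 14 were higher and 4 lower than in *Neurod6* barcodes, beside 33.1% called over all genes. The metabotropic receptor gene *Grm8* led them, at 347 and 221 CPM against 5.65 and 7.07 (5.35 ± 0.24, edgeR adjusted p = 3.22e-06). *Grm2* was at 25.4 and 26.1 against 2.09 and 2.21 (3.44 ± 0.26, edgeR adjusted p = 3.57e-05) and the scarce *Grm4* at 4.04 and 7.98 against 0.245 and 0.313 (4.23 ± 0.69, edgeR adjusted p = 0.00226). Kainate receptor subunit genes took both directions. *Grik4* and *Grik1* were higher (3.15 ± 0.20, edgeR adjusted p = 1.74e-05 and 2.63 ± 0.34, edgeR adjusted p = 6.10e-04), while *Grik3* was lower, at 29.5 and 16.7 against 112 and 109 CPM (-2.36 ± 0.23, edgeR adjusted p = 1.53e-04).

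Of the AMPA receptor subunits, *Gria2*, which makes these receptors impermeable to calcium, was lower in members, at 375 and 283 against 1212 and 1202 CPM (-2.01 ± 0.18, edgeR adjusted p = 1.01e-04), as was *Gria3* (-1.56 ± 0.17, edgeR adjusted p = 2.21e-04). *Gria4* was higher (0.89 ± 0.19, edgeR adjusted p = 0.00879) and *Gria1* did not pass (-0.30 ± 0.22, edgeR adjusted p = 0.349). The NMDA receptor genes *Grin1* and *Grin2a* were higher, at 41 and 58.7 against 20.1 and 20.1 CPM (1.16 ± 0.16, edgeR adjusted p = 9.67e-04) and 51.4 and 67.4 against 23.3 and 29.4 (1.03 ± 0.21, edgeR adjusted p = 0.00644), and *Grin2b* did not pass (-0.36 ± 0.12, edgeR adjusted p = 0.0576, or 0.0455 with the embryo as a replicate block). Against *Reln*-rich GABAergic barcodes the balance of the same list was 5 higher and 11 lower, beside 30.8% called over all genes. *Gria1* was at 1444 and 2239 CPM there against 150.2 and 203 in members (-3.46 ± 0.24, edgeR adjusted p = 5.74e-05) and *Grik1* at 473 and 901 against 55.5 and 64.5 (-3.59 ± 0.32, edgeR adjusted p = 1.42e-04), whereas *Grm8* was higher in members in this comparison also (2.70 ± 0.25, edgeR adjusted p = 1.98e-04).

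Of 18 genes of GABA and glycine receptors and chloride transport tested, 5 were higher, 2 lower and 11 not called against *Neurod6* barcodes, beside 33.1% called over all genes. *Gabrg3*, a gamma subunit of the GABA-A receptor, had the largest fold change of those called, at 222 and 279 CPM against 12.2 and 17.3 (3.94 ± 0.19, edgeR adjusted p = 4.86e-06). *Glra2*, the embryonic glycine receptor subunit, and *Gabra2* were lower (-1.95 ± 0.18, edgeR adjusted p = 1.10e-04 and -0.83 ± 0.12, edgeR adjusted p = 9.71e-04). The chloride exporter gene *Slc12a5* (Kcc2) was at 11.6 and 10.2 against 3.97 and 3.96 CPM (1.33 ± 0.25, edgeR adjusted p = 0.00428), while the importer gene *Slc12a2* (Nkcc1) stood at 32.4 and 31.2 against 31.2 and 33.1 (-0.15 ± 0.13, edgeR adjusted p = 0.443). *Gabrg1* (1.87 ± 0.49, edgeR adjusted p = 0.0197) rested on 12 UMIs in members, and *Gabra4* (1.06 ± 0.35, edgeR adjusted p = 0.0468) reached an edgeR adjusted p of 0.0523 without the members that carried other markers and 0.0745 with the embryo as a replicate block.

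Of 36 voltage-gated channel genes tested, 14 were higher, 9 lower and 13 not called against *Neurod6* barcodes, beside 33.1% called over all genes. *Cacna2d3*, an auxiliary calcium channel subunit, was at 1038 and 976 CPM in members against 60.3 and 66.9 (3.85 ± 0.15, edgeR adjusted p = 1.11e-06), so that with *Cacna2d2* a pair of genes of this family stood high. Among potassium channel genes, *Kcnip1*, a modulator of A-type channels, was at 248 and 279 against 40.6 and 42.2 (2.54 ± 0.17, edgeR adjusted p = 2.29e-05) and the inward rectifier *Kcnj6* at 23.7 and 21.8 against 3.76 and 4.5 (2.33 ± 0.23, edgeR adjusted p = 1.40e-04). *Kcnn2*, *Kcnq3* and *Kcna1* were lower. *Kcnq3*, a subunit of the M-current, was at 223 and 205 against 1307 and 1369 CPM (-2.78 ± 0.19, edgeR adjusted p = 2.29e-05) and *Kcnn2* at 34.7 and 13.1 against 174 and 198 (-3.04 ± 0.29, edgeR adjusted p = 1.28e-04). *Kcna1* rested on 8 UMIs in members (-2.51 ± 0.34, edgeR adjusted p = 7.94e-04).

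Synaptic and cytoskeletal genes showed no common direction. Of 22 presynaptic genes, 4 were higher, 4 lower and 14 not called against *Neurod6* barcodes, beside 33.1% called over all genes. The release genes *Syt4*, *Cplx2* and *Snap25* were lower, *Snap25* at 173 and 149 against 299 and 273 CPM (-0.96 ± 0.12, edgeR adjusted p = 4.44e-04). *Syt4* and *Cplx2* had log2 fold changes of -2.20 ± 0.14 and -1.80 ± 0.14. *Syn2* and *Stx1a* were higher (1.15 ± 0.16, edgeR adjusted p = 0.00108 and 0.72 ± 0.13, edgeR adjusted p = 0.00391). Among 16 synapse organisers, *Nlgn1* was lower, at 482 and 175 against 1901 and 1677 CPM (-2.57 ± 0.42, edgeR adjusted p = 0.00213), and so was *Lrrtm3* (-2.43 ± 0.16, edgeR adjusted p = 1.74e-05). *Nxph3*, a secreted ligand of neurexins, was higher, at 68.2 and 96.4 against 19.9 and 18.8 CPM (1.94 ± 0.16, edgeR adjusted p = 5.28e-05) and against 2.77 and 2.48 in *Reln*-rich GABAergic barcodes (4.87 ± 0.29, edgeR adjusted p = 2.88e-05). *Nrxn3* and *Nxph1* were higher than in *Neurod6* barcodes (2.54 ± 0.35 and 2.24 ± 0.27) and lower than in *Reln*-rich GABAergic barcodes (-5.12 ± 0.39 and -5.84 ± 0.26).

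Of 17 cytoskeletal genes, 5 were higher and 5 lower against *Neurod6* barcodes, beside 33.1% called over all genes. *Gap43*, a growth cone protein gene, was at 1559 and 1877 CPM against 421 and 434 (1.87 ± 0.12, edgeR adjusted p = 1.74e-05) and the tubulin gene *Tubb2a* at 635 and 671 against 284 and 280.0 (1.08 ± 0.14, edgeR adjusted p = 6.86e-04). *Dcx*, the doublecortin gene of migrating neurons, was lower, at 311 and 264 against 613 and 645 (-1.26 ± 0.13, edgeR adjusted p = 1.87e-04). The neurofilament genes *Nefm* and *Nefl* were called lower on few UMIs (-2.45 ± 0.51, edgeR adjusted p = 0.00709 and -2.32 ± 0.77, edgeR adjusted p = 0.0493), and *Nefl* lost the call without the members that carried other markers (edgeR adjusted p = 0.0987). *Ina*, the internexin of the same filaments, was higher (0.75 ± 0.11, edgeR adjusted p = 0.00127).

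Because most Cajal-Retzius cells die after birth, 26 genes of cell death and survival were listed, of which 22 passed the filter. Of these, 7 were higher and 4 lower than in *Neurod6* barcodes, beside 33.1% called over all genes, with a median of 0.32. *Cdkn1a* (chromosome 17, 29090979 to 29100722), the p21 inhibitor of the cell cycle and a target of the p53 family, was at 141 and 105 CPM against 2.73 and 1.86 (5.62 ± 0.25, edgeR adjusted p = 2.54e-06), and members carried 38.2% and 28.3% of its UMIs. *Bbc3* (Puma), another p53 family target and a promoter of apoptosis, was at 28.9 and 26.8 against 11.5 and 11.2 (1.17 ± 0.17, edgeR adjusted p = 0.00127). *Diablo*, which blocks inhibitors of caspases, was at 72.2 and 118 against 21.1 and 22.5 (1.97 ± 0.20, edgeR adjusted p = 1.91e-04), and *Hrk* was higher on 25 UMIs (1.46 ± 0.38, edgeR adjusted p = 0.0196).

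*Bax* was modestly higher (0.45 ± 0.10, edgeR adjusted p = 0.00999), while *Bcl2*, which opposes it, was lower (-0.98 ± 0.17, edgeR adjusted p = 0.0032). *Trp53* itself was lower (-0.39 ± 0.13, edgeR adjusted p = 0.0479, and -0.69 among members without other markers), and *Trp63* had 0 UMIs in members. The neurotrophin receptor genes parted, *Ntrk2* being higher at 342 and 375 against 127 and 119.7 CPM (1.40 ± 0.17, edgeR adjusted p = 4.53e-04) and *Ntrk3* lower at 97.6 and 94.3 against 528 and 539.9 (-2.61 ± 0.21, edgeR adjusted p = 4.88e-05). *Ngfr*, the p75 receptor, had 4.62 and 3.63 CPM against 4.56 and 4.02 and did not pass (-0.17 ± 0.37, edgeR adjusted p = 0.768). Against *Reln*-rich GABAergic barcodes 5 of the 22 were higher and 4 lower, beside 30.8% called over all genes. *Cdkn1a*, *Bbc3*, *Diablo* and *Bax* were among the higher (4.75 ± 0.36, 2.5 ± 0.26, 2.02 ± 0.26 and 0.76 ± 0.11).

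The programme of cortical projection neurons was low in members. Of its 28 listed genes, 24 were lower than in *Neurod6* barcodes, 0 were higher and 4 were not called, with a median of -2.02. Over all genes tested 14.7% were lower and 33.1% were called. The comparator was chosen by *Neurod6*, a gene of the same programme. *Neurod2*, a helix-loop-helix factor of these neurons, was at 63.6 and 59.5 CPM against 520.2 and 497 (-3.18 ± 0.27, edgeR adjusted p = 6.89e-05) and *Fezf2*, of subcerebral neurons, at 19.6 and 7.25 against 132 and 113 (-3.26 ± 0.31, edgeR adjusted p = 1.30e-04). *Bcl11b*, *Sox5* and *Rorb* were lower as well (-2.37 ± 0.22, -2.84 ± 0.24 and -2.95 ± 0.32). *Neurod2* was at 184 and 208 CPM in members that also carried *Neurod6* and at 27.5 and 22.9 in members without other markers, among which its log2 fold change was -4.46. *Rgs6*, *Ldb2*, *Pde4b*, *Bmpr1b* and *Pou3f1* were among the genes furthest below *Neurod6* barcodes, at -3.99 ± 0.28, -3.63 ± 0.27, -3.63 ± 0.20, -3.56 ± 0.36 and -3.52 ± 0.23, and *Ldb2* moved to -6.31 and *Bmpr1b* to -5.96 without the members that carried other markers.

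Against the *Reln*-rich GABAergic barcodes, 15 of the 17 Cajal-Retzius genes were higher in members and 2 were not called, with a median of 4.55 beside -0.02 over all genes. Over all genes tested 15.7% were higher and 30.8% were called. Of the *Reln*-rich GABAergic barcodes, 50 and 30 also carried *Neurod6* at 3 or more UMIs, 28 and 4 *Eomes* at 3 or more, and 18 and 5 the *Slc1a3* and *Sox2* limits. *Nhlh2* was at 5.84 and 2.48 CPM there (6.72 ± 0.21, edgeR adjusted p = 5.35e-06), *Ebf3* at 8.3 and 3.97 (5.69 ± 0.24, edgeR adjusted p = 1.02e-05), *Calb2* at 3.69 and 8.44 (5.40 ± 0.38, edgeR adjusted p = 6.14e-05) and *Ndnf* at 6.15 and 12.4 (5.11 ± 0.23, edgeR adjusted p = 1.02e-05). *Mia*, which encodes a small secreted protein, and *Rgs4*, a regulator of G protein signalling, also stood out, at 100 and 94.3 against 0.615 and 3.97 CPM (5.60 ± 0.38, edgeR adjusted p = 5.04e-05) and 75.7 and 64.5 against 1.23 and 1.99 (5.46 ± 0.35, edgeR adjusted p = 3.93e-05). Every one of these lay higher in both embryos of the members than in either embryo of the comparator.

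The interneuron programme lay on the other side. Of 19 genes tested, 17 were lower in members, 0 were higher and 2 were not called, beside 30.8% called over all genes. Their median was -5.92. The gate capped *Gad1* and *Gad2* in members and the comparator required them, so both sides were selected on genes of this programme. The values describe how far the classes stand apart. *Dlx1*, a homeobox gene of subpallial neurons, was at 1.73 and 1.45 CPM in members against 154 and 205 (-6.86 ± 0.33, edgeR adjusted p = 1.09e-05), *Dlx6os1* at 5.2 and 0.725 against 485 and 653 (-7.54 ± 0.38, edgeR adjusted p = 1.35e-05) and *Erbb4*, the neuregulin receptor, at 342 and 200.1 against 5049 and 6756 (-4.51 ± 0.33, edgeR adjusted p = 6.76e-05). The peptide genes *Sst* and *Npy* were at 3.47 and 0.725 against 420.0 and 921 (-8.29 ± 0.67, edgeR adjusted p = 9.51e-05) and 5.78 and 0 against 205 and 375 (-6.55 ± 0.83, edgeR adjusted p = 9.10e-04). *Lhx6*, of medial ganglionic eminence interneurons, had 3 UMIs in all members and stood at 100.86 and 175 CPM in the comparator. *Dlx6*, *Sp8* and *Cntnap3* had 0 UMIs in members, which puts them at least 25-fold, 12-fold and 91.0-fold lower, the floor being 3 UMIs over all members.

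*Prox1* and *Calb1*, which are listed for interneurons but are used elsewhere too, were the 2 not called, at 16.2 and 9.43 CPM in members against 15.1 and 8.94 (0.01 ± 0.40, edgeR adjusted p = 0.996) and 9.82 and 13.8 against 15.1 and 13.9 (-0.39 ± 0.35, edgeR adjusted p = 0.435). Of the 18 patterning genes tested, 8 were higher, 2 lower and 8 not called, beside 30.8% called over all genes. *Zic1* was at 58.4 and 88.9 CPM in *Reln*-rich GABAergic barcodes (0.98 ± 0.23, edgeR adjusted p = 0.0137, and 0.52 without comparators that carried other markers) and *Rspo2* at 22.1 and 64.1 (0.86 ± 0.49, edgeR adjusted p = 0.219), which passed without comparators that carried other markers (2.21, edgeR adjusted p = 0.0302). Of the reelin pathway, *Vldlr*, *Lrp8* and *Cdh2* were lower in members in this comparison too (-1.16 ± 0.20, -0.54 ± 0.12 and -0.44 ± 0.10) and *Nectin1* higher (1.04 ± 0.14). *Dab1* was called lower (-0.75 ± 0.21, edgeR adjusted p = 0.0303), but the direction turned without comparators that carried other markers (0.39, edgeR adjusted p = 0.10). The projection neuron list turned in the same way. Of its 28 genes 3 were higher and 14 lower against all *Reln*-rich GABAergic barcodes, beside 30.8% called over all genes. With the comparators that carried other markers left out, 11 were higher and 6 lower, beside 1868 higher and 1768 lower over all genes.

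The members were not uniform. *Ndnf* ranged from 0 to 33 UMIs per member in embryo 4 and from 0 to 36 in embryo 5 and was seen in 61 and 67 members. *Calb2* ranged from 0 to 31 and 0 to 25 and was seen in 49 and 63, and *Cdkn1a* from 0 to 18 and 0 to 20, seen in 64 and 52. *Grm8* was concentrated in fewer members, with 0 to 88 and 0 to 42 UMIs in 35 and 29 of them, whereas *Ebf3* was seen in 96 and 92. *Ndnf* and *Car10* were seen together in 43 and 51 members and neither in 40 and 26, and the median depth of the former was 18208 and 14681 UMIs against 11879 and 10499 in the latter.

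Correlations across the 111 and 97 members, over 6578 genes seen in at least 25% of them, are given as a description, since the members of an embryo share a library and differ in depth, and the partners named were chosen after their values were seen. The correlation (Pearson's r, log-scaled UMIs per barcode total) of *Ndnf* was 0.69 and 0.67 with *Car10*, 0.63 and 0.50 with the dynein gene *Dync1i1* and 0.66 and 0.45 with *Thsd7b*. It was -0.51 and -0.37 with *Sox11*, a transcription factor of newborn neurons. *Calb2* went with *Pcp4* (0.54 and 0.59) and *Gap43* (0.49 and 0.51), and ran against *Sox11* (-0.47 and -0.49).

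*Cdkn1a* ran with other genes. Its correlation was 0.62 and 0.55 with the centromere protein gene *Cenpw*, 0.60 and 0.49 with the growth factor gene *Mdk*, 0.56 and 0.50 with *Rspo3* and 0.44 and 0.50 with *Phlda3*, like *Cdkn1a* a p53 target. It was -0.51 and -0.56 with the active zone gene *Erc2* and -0.45 and -0.47 with *Grin2b*. *Zic1* went with *Zic4* (0.53 and 0.61), its divergently transcribed neighbour, and with *Lhx9* (0.36 and 0.35), and against *Kcnip1* (-0.51 and -0.33) and *Grm8* (-0.35 and -0.31).

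The members that also carried *Eomes*, a T-box factor of intermediate progenitors, numbered 12 and 5, and several of the genes that ran with *Cdkn1a* stood higher in them than in the members without other markers. *Cdkn1a* was at 442 and 257 CPM in them against 99.5 and 109.7, *Slit2*, a secreted repellent, at 884 and 257 against 113 and 143, *Igfbpl1* at 1410 and 698 against 327 and 252 and *Mdk* at 741 and 390.2 against 145 and 163. *Reln* was at 3950 and 8460 against 8416 and 9989 CPM and *Nhlh2* at 233 and 226 against 585 and 598. The cycling genes *Top2a* and *Mki67* were at 0 and 226 against 6.22 and 2.99 and 0 and 71.9 against 5.33 and 9.98, with 22 *Top2a* UMIs among the 5 members of embryo 5. *Vim*, an intermediate filament gene of progenitors, was at 305 and 103 against 145 and 167, higher in embryo 4 and lower in embryo 5. The embryos also differed on *Ndnf*, at 0 and 277 against 366 and 405, and on *Thsd7b*, at 41.8 and 883 against 1244 and 1090. *Trp73* and *Ebf3* stood at 353 and 452 against 341 and 338 and 335 and 329 against 369 and 393.

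In the members that carried *Neurod6*, *Reln* was at 5573 and 7033 CPM, *Ebf3* at 259 and 329 and *Ndnf* at 196 and 147, beside *Neurod2* at 184 and 208. *Calb2* was at 41.2 and 117 against 245 and 379 CPM in members without other markers. *Ebf2* was at 128 and 155 against 124 and 178, *Ebf1* at 79.9 and 106 against 76.4 and 193 and *Slc17a6* at 177 and 132 against 161 and 169, each a little higher in embryo 4 and lower in embryo 5. Whether a barcode of this kind held 1 cell or 2 was not tested. These strata were set after the data were seen, and no test was run between them.

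**Figure D4:**
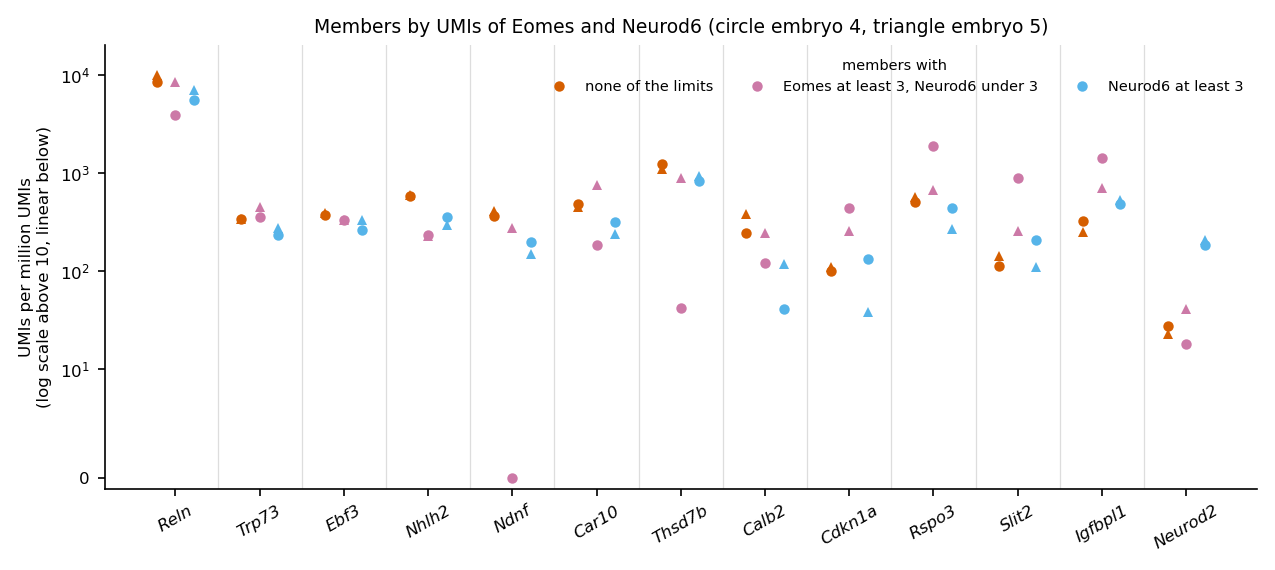
Levels of 13 genes in 3 groups of members, those with none of the *Neurod6*, *Eomes* or *Slc1a3* limits (82 and 81), those with *Eomes* (12 and 5) and those with *Neurod6* (15 and 10), in CPM (log scale above 10, linear below), with a circle for embryo 4 and a triangle for embryo 5. *Cdkn1a* and *Slit2* stand highest in members with *Eomes*, and *Neurod2* in members with *Neurod6*.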

How the data were processed

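Per the labels, dissociated E16.5 cortex was run on the 10x Genomics 3' v3.1 chemistry. The study's single-cell methods describe the dorsal telencephalon at an earlier age, and the labels were followed. The authors deposited filtered matrices of UMI counts per gene and barcode, made with Cell Ranger against mm10 (version 7.0.0 in the processing notes, 7.1.0 in the matrix headers). Whether introns or strand were counted, and any doublet removal, were not given in the sources used here, and no doublet caller was run. UMIs were summed per embryo and class, so the precision rests on 1730835 and 1379244 UMIs in members. The sums were tested with edgeR 4.0.16 (TMM, filterByExpr, quasi-likelihood, Benjamini-Hochberg over all genes tested) in R 4.3.3, and genes that define a class stayed in the fit but out of every count of calls. DESeq2 1.42.0 gave an alternative. Because nothing states separate litters, p-values measure only the spread between these 2 embryos. The embryo number marks the same animal in every class and so pairs the sums. The deviations of same-numbered sums correlated at 0.0816, 0.165 and 0.0466 over genes in the 3 comparisons.

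The named genes were the 12 highest and 12 lowest with at least 50 CPM in each comparison, up to 6 called genes per list, and members that define a list. Other list members, such as *Rspo3*, *Unc5d*, *Grik3*, *Nectin3* and *Lhx2*, were named after their values were seen. The members, gate and gene lists were chosen with earlier results of these data known. Alternatives changed 1 choice at a time, and those that only left out barcodes with markers of other classes were chosen after seeing the data. The test was checked on simulated counts. Coordinates are from RefSeq GRCm38.p6, matched by symbol. Results of some genes are not reported here.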

Additional observations from a re-analysis of the deposited data

How the results depend on the processing

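Counts of genes stayed within 1.5 times the main count under the alternatives run, apart from 4 values. With no filter on low counts, 1405 genes were higher against *Neurod6* barcodes, and 1035 were higher and 1034 lower against *Reln*-rich GABAergic barcodes. With only the sums of the 2 classes in the fit, 2848 genes were lower against *Neurod6* barcodes. The cause was not tested. Without a filter the median log2 fold change of all genes shifted by -0.31 against all other barcodes and by -0.27 against *Neurod6* barcodes. The embryo as a replicate block gave 2165 higher and 1761 lower genes against *Neurod6* barcodes and moved no count by over 1.5 times.

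The share of kept barcodes in the gate, 0.933% on the mean of the embryos, became 0.743% when doublet-like barcodes were left out and 0.730% without the members that carried markers of other classes, and was 0.846 to 1.02% when either embryo was left out. Members carried 6.86 of the 10 check genes on average and 4.30 after thinning to 3000 UMIs.

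Against *Reln*-rich GABAergic barcodes, 13 named genes turned from a negative to a positive log2 fold change when comparators with markers of other classes were left out. The log2 fold changes became 2.77 for *Neurod2*, 2.47 for *Emx1*, 1.46 for *Fezf2*, 1.30 for *Bmpr1b*, 1.21 for *Sox5*, 0.88 for *Pou3f1*, 0.68 for *Ldb2*, 0.44 for *Kcnq3*, 0.39 for *Dab1*, 0.17 for *Unc5d*, 0.083 for *Rgs6* and 0.0583 for *Syt4*. *Kcna1*, on few counts, became 8.65. No named gene turned against the other comparators under these alternatives.

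The embryo as a replicate block added 3 calls among the named genes against *Neurod6* barcodes (*Ackr3*, *Fyn* and *Grin2b*) and removed 1 (*Gabra4*). It added 2 against *Reln*-rich GABAergic barcodes, *Fyn* (edgeR adjusted p = 0.0397) and *Kcnip1* (edgeR adjusted p = 0.0301), and 5 against all other barcodes (*Bmp7*, *Lhx2*, *Lum*, *Slit2* and *Vldlr*). Without the members that carried other markers, *Dlx1*, *Fyn* and *Top2a* gained a call against *Neurod6* barcodes and *Gabra4* and *Nefl* lost it. Against *Reln*-rich GABAergic barcodes *Aldoc*, *Fyn*, *Gria3*, *Hrk*, *Kcnip1*, *Lhx2*, *Mki67*, *Nefm*, *Sema3c*, *Slc17a7* and *Slc1a2* gained a call and *Syt4* and *Vim* lost it. Against all other barcodes *Fyn*, *Lhx2* and *Vldlr* gained a call and *Nefl* lost it.

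With 1 embryo left out, fold changes could be had but no test. Of the 118 named genes called against *Neurod6* barcodes, 12 moved by more than 1.5 times without embryo 4 and 7 without embryo 5. Without embryo 4 the log2 fold change became 3.25 for *Rgs5*, -4.10 for *Fezf2*, 0.27 for *Gabra4*, -2.17 for *Inhba*, -4.06 for *Kcnn2*, 6.37 for *Mab21l1*, -4.31 for *Nefl*, -4.01 for *Nefm*, -3.40 for *Nlgn1*, 1.88 for *Nrxn3*, -4.21 for *Pde4b* and -4.22 for *Rorb*, and without embryo 5 1.66 for *Rgs5*, -1.46 for *Nefl*, -1.69 for *Nefm*, 2.21 for *Nhlh1*, -2.32 for *Rorb* and -3.18 for *Sema3c*. Of the 107 called against *Reln*-rich GABAergic barcodes, 33 and 21 moved by as much. Among those given above, the value became 3.83 for *Cdkn1a*, -9.89 for *Dlx6os1*, 6.48 for *Ebf3*, -5.16 for *Erbb4*, 2.07 for *Grm8*, 4.48 for *Mia*, 7.59 for *Nhlh2*, -6.10 for *Nrxn3*, 2.5 for *Rgs5*, 2.91 for *Slc17a6* and -10.38 for *Sst* without embryo 4 and 5.61 for *Cdkn1a*, -6.60 for *Dlx6os1*, 7.28 for *Mia*, -5.20 for *Npy*, -4.35 for *Nrxn3*, 4.69 for *Rgs5* and -6.97 for *Sst* without embryo 5. Against all other barcodes 17 and 9 of 129 did. Where the remaining embryo held 0 UMIs in a class, as for *Inhba* without embryo 5 and *Lhx1os*, *Npy* and *Slc32a1* without embryo 4, no fold is given. No called gene among them changed sign.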

Other observations

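Outside the gate, 10 and 7 barcodes met its limits on *Reln* and on *Trp73*, *Lhx1* and *Lhx5* but carried at least 2 *Gad* UMIs. Their median *Reln* counts were 66.5 and 18 UMIs, they carried a median of 5 and 4 of the 10 check genes, and their median depths were 17216 and 27365 UMIs. Below the limits on detected genes or mitochondrial UMIs, 2 and 1 barcodes met the gate.

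*Dnmt1*, the maintenance DNA methyltransferase that the study is about, was at 44.5 and 58 CPM in members, 40.7 and 42.1 in *Neurod6* barcodes (log2 fold change 0.16 ± 0.13, edgeR adjusted p = 0.403) and 60.3 and 57.6 in *Reln*-rich GABAergic barcodes (-0.29 ± 0.15, edgeR adjusted p = 0.181). Neither difference passed the threshold. This gene was added after the data were seen.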
